A study of Mus musculus with 15 samples.

Results

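Messenger RNA levels were examined in mouse embryonic stem (ES) cells for the enzymes that write, copy and remove DNA methylation: the DNA methyltransferases Dnmt1, Dnmt3a and Dnmt3b, their cofactor Dnmt3l, the replication-coupled factor Uhrf1 and the dioxygenases Tet1, Tet2 and Tet3. The members were the array's gene names equal to one of these symbols, and the probe with the highest mean signal over all arrays stood for each gene. All 8 were found, among 31829 gene names on the array, and all 8 were among the 25087 genes that were tested. The samples were ES cells with the hairpin sh4 after 72 hours in 1 µM retinoic acid (3 arrays, replicates 1, 3 and 4), ES cells with the control hairpin shCTR after the same treatment (4 arrays), sh4 cells with no stated treatment (4 arrays) and shCTR cells with no stated treatment (4 arrays). Retinoic acid is a vitamin A derivative that makes ES cells differentiate. The labels name neither the ES cell line nor the target of sh4, and the series title names Phf19, a Polycomb-associated protein. No time in culture is given for the untreated cells, so retinoic acid and 72 hours of culture cannot be told apart. A single targeting hairpin was used, so an effect of silencing and an off-target effect of sh4 cannot be told apart. The titles call the arrays biological replicates and do not say that the cultures were separate, so each p-value reflects the spread among these samples only, which may be technical.

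In mammals DNA methylation is placed mostly on the cytosine of CG dinucleotides. Dnmt3a and Dnmt3b methylate unmethylated sites de novo, and Dnmt3l, which has no catalytic activity of its own, binds and stimulates them. Dnmt1 copies the pattern onto the new strand after replication, and Uhrf1 binds hemimethylated DNA and brings Dnmt1 to it. The Tet enzymes oxidise 5-methylcytosine to 5-hydroxymethylcytosine and further forms, which can then be lost by dilution or by base excision repair. ES cells are known for high levels of Dnmt3b, Dnmt3l, Tet1 and Tet2, and differentiation is known to lower Tet1.

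Each gene was read by 60-base probes whose mm9 coordinates come from the array files, which name the gene but not the exon. Because the results below turn on which stretch of a transcript was measured, 5 probe sequences are shown first. The Dnmt1 probe lies at chr9:20711973-20712341 on the minus strand. Its 60 bases span 369 bases of genome, so it crosses an exon junction. Where in the probe the junction falls is not given, and whether the probe also reads unspliced RNA was not tested. It is printed in lower case throughout.
Dnmt1 probe: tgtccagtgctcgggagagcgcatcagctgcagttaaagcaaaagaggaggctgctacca
Dnmt3b had 3 probes on the plus strand, and the one at chr2:153512098-153512157 holds a stop triplet after an open reading frame. Its first 38 bases are shown with that triplet in capitals, since this probe reads the end of the coding sequence.
Dnmt3b probe, first part: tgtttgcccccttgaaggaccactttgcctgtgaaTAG
Tet3 was the member whose probes disagreed, and all 3 of its probes are shown for that reason. They lie on the minus strand at chr6:83319720-83319779 (the brightest), chr6:83352743-83352802 (upstream in the gene) and chr6:83318731-83318790 (downstream), and each holds at least 1 reading frame that is open over its whole length.
Tet3 brightest probe: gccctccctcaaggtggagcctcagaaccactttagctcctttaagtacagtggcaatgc
Tet3 upstream probe: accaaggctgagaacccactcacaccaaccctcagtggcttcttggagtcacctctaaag
Tet3 downstream probe: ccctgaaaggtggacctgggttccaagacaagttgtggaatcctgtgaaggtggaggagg
The probes that stood for the other genes lie at chr12:3914320-3914379 on the plus strand (Dnmt3a), chr2:153513403-153513462 on the plus strand (Dnmt3b), chr10:77526112-77526171 on the plus strand (Dnmt3l), chr17:56462770-56462829 on the plus strand (Uhrf1), chr10:62274448-62274507 on the minus strand (Tet1) and chr3:133126751-133126810 on the minus strand (Tet2). Every one of these 8 probes was well above background on all 15 arrays.

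Since CG dinucleotides are what these enzymes act on, the promoters of the 3 members that the hairpin changed are shown with each CG in capitals. They are the 250 bases before the first RefSeq start of each gene, on GRCm38.p6, a different build from that of the probes. The motif is the 2 letters CG, which reads the same on both strands.
Dnmt3b, chr2:153649199-153649448 (+): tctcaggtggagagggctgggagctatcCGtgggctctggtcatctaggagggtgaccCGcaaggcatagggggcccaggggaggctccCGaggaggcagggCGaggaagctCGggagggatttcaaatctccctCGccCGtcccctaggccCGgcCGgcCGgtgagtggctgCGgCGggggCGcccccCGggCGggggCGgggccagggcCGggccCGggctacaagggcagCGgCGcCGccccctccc
Dnmt3l, chr10:78042037-78042286 (+): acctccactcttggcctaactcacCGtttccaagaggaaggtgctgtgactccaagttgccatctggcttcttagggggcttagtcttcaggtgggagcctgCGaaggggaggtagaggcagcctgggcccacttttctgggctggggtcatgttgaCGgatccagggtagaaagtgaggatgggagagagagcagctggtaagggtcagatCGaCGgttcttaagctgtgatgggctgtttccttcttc
Tet2, chr3:133544391-133544640 (-): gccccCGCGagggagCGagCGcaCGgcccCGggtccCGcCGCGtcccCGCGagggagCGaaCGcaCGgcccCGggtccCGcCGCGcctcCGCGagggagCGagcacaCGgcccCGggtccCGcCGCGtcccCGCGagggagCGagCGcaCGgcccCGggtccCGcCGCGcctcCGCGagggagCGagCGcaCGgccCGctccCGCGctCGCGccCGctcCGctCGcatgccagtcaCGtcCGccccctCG
Tet2 had 51 CG in this window, a count reached by 0.067% of 32851 RefSeq promoters of the same length. For Dnmt3b the count was 21, reached by 16.3% of promoters, and for Dnmt3l it was 5, reached by 55.6%. The median promoter had 6 CG, with quartiles of 2 and 16. All 8 members matched RefSeq, with 15 start sites in all, and the counts at the other members' starts ran from 2 and 7 at the upstream starts of Dnmt1 to 40 at a start of Dnmt3a. These counts describe the letters only.

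Levels are given as log2 of the processed spot signal relative to the array's 75th percentile, so that 0 is a signal equal to that percentile. A level is compared between samples for one probe and never between probes, because probes differ in how strongly they hybridise. Of all probes, 73.8% to 79.4% were well above background on each array, and no spot was saturated. The scanner software rated 3 arrays for evaluation (sh4 72 RA replicate 1, sh4 replicate 3 and shCTR replicate 2), and the calls without them are given where they differ. The arrays lay on 4 slides that held samples of several groups. Phf19 checked the labels: its level was 30.2% of that in shCTR cells in untreated sh4 cells (log2 fold change -1.73 ± 0.09 SE, adjusted p = 7.3e-09) and 54.4% of it under retinoic acid (-0.88 ± 0.09, adjusted p = 1.9e-05). Phf19 itself fell with retinoic acid, to 22.4% of the untreated level in shCTR cells and 40.3% in sh4 cells. Treated shCTR cells thus had less Phf19 than untreated sh4 cells (mean levels -2.98 and -2.55, adjusted p = 6.4e-04). Tests are limma's two-sided moderated test with Benjamini-Hochberg adjustment over all 25087 genes, at an adjusted p of 0.05, and errors on fold changes are standard errors.

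In untreated cells the hairpin changed 2 of the 8 members, in opposite directions. Dnmt3b was 2.44-fold higher and Tet2 was at 59.3% of its level in sh4 cells relative to shCTR cells. Under retinoic acid 3 members were lower in sh4 cells and none was higher in the main fit: Dnmt3b at 74.1%, Dnmt3l at 54.5% and Tet2 at 78.8% of the level in shCTR cells. With the slide as a block Dnmt1 was called higher there, at 0.26 (adjusted p = 0.027). With retinoic acid 7 of 8 members changed in each hairpin. Dnmt3a rose, and Dnmt1, Dnmt3b, Dnmt3l, Uhrf1, Tet1 and Tet2 fell. The fall of Dnmt3b in shCTR cells was not called by its 2 other probes and was lost in some alternatives. The hairpin's effect differed between treatments for Dnmt3b, Dnmt3l and Tet2. In a bulk sample, fewer cells of a type and less RNA per cell cannot be told apart, for these genes or any other below.

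These counts stand against a background in which much of the transcriptome moved. In untreated cells 28.6% of all genes passed the test of sh4 against shCTR, 14.4% higher and 14.1% lower, against 2 of 8 members, 1 in each direction. With retinoic acid 21.2% passed, 10.9% higher and 10.3% lower, against 3 of 8 members, all lower. In sh4 cells 58.7% of genes changed with retinoic acid, 27.1% higher and 31.6% lower, and in shCTR cells 62.4% changed, 29.0% higher and 33.5% lower; among the members 1 rose and 6 fell in both. The interaction passed for 20.5% of genes, 10.2% in the positive direction and 10.2% in the negative, and for 3 members, 1 positive and 2 negative. Groups did not overlap for 28.3% of genes between sh4 and shCTR untreated, for 32.4% under retinoic acid, for 57.9% with and without retinoic acid in sh4 cells and for 59.9% in shCTR cells. The members without overlap numbered 4, 3, 7 and 7 in the same 4 comparisons. The median log2 fold change of the members was -0.02, -0.16, -1.37 and -0.74 there, against 0.02, 0.04, -0.12 and -0.12 over all genes. The 2 remaining pairs of groups, used below only to order levels, passed for 60.3% of genes (sh4 with retinoic acid against untreated shCTR) and 62.0% (shCTR with retinoic acid against untreated sh4).

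**Figure D1:**
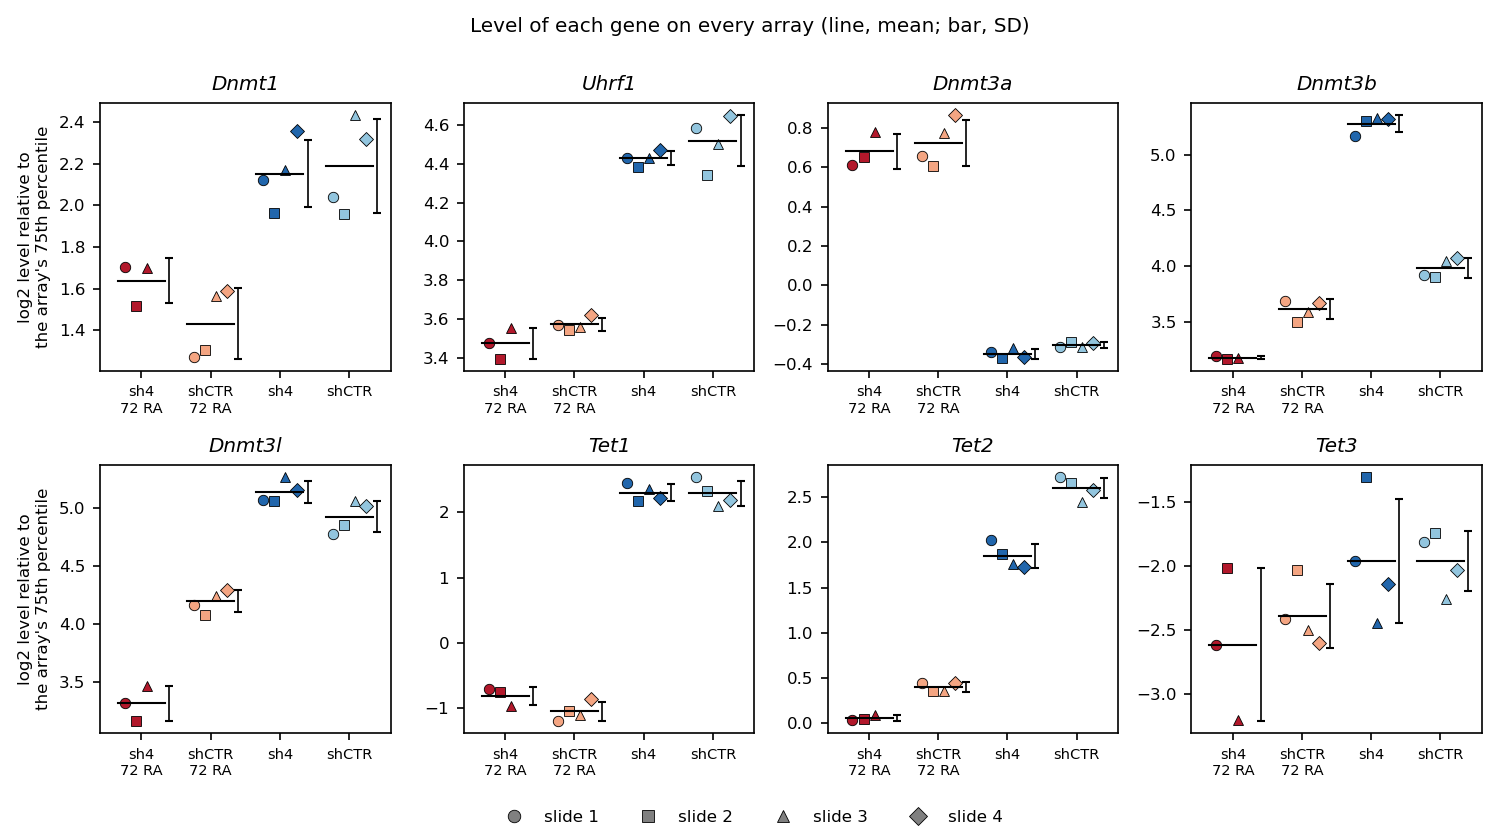
Log2 level of each of the 8 genes relative to the array's 75th percentile (vertical axes), 1 panel per gene, for sh4 72 RA, shCTR 72 RA, sh4 and shCTR from left to right; points are arrays, shaped by slide, lines are means and bars are SD. Dnmt3b in untreated sh4 cells (5.16 to 5.33) stands above its level in every other group, and Tet1 in both groups with retinoic acid lies at or below -0.72.

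Dnmt1 and Uhrf1, the maintenance pair, were lower with retinoic acid in both hairpins, and neither passed the test of the hairpin in the main fit. Dnmt1, the maintenance methyltransferase, had levels of 1.70, 1.52 and 1.70 in sh4 cells with retinoic acid, against 2.12, 1.96, 2.17 and 2.36 in untreated sh4 cells. In shCTR cells it had 1.27, 1.30, 1.57 and 1.59 with retinoic acid, against 2.04, 1.96, 2.43 and 2.32 untreated. In each hairpin all samples with retinoic acid lay below all untreated ones. The level fell to 70.0% of the untreated one in sh4 cells (log2 fold change -0.51 ± 0.13, adjusted p = 0.0042) and to 59.2% in shCTR cells (-0.76 ± 0.12, adjusted p = 9.7e-05). Between hairpins the difference was -0.03 ± 0.12 in untreated cells (95% interval -0.30 to 0.23, adjusted p = 0.91). Under retinoic acid it was 0.21 ± 0.13 (-0.08 to 0.49, adjusted p = 0.34), and sh4 was above shCTR on each of the 3 slides that held both, by 0.13 to 0.43. With the slide as a block this last difference passed the test, at 0.26 (adjusted p = 0.027).

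Uhrf1 reads hemimethylated DNA and histone H3 tails. Its level was 3.47, 3.40 and 3.56 in sh4 cells with retinoic acid, against 4.43, 4.39, 4.43 and 4.47 in untreated sh4 cells. The shCTR samples read 3.57, 3.54, 3.56 and 3.62 with retinoic acid, against 4.58, 4.34, 4.50 and 4.65 untreated. Spread within a group was small, with an SD of 0.03 to 0.13, and treated and untreated samples were far apart. Uhrf1 fell to 51.7% in sh4 cells (-0.95 ± 0.07, adjusted p = 6.5e-08) and to 52.0% in shCTR cells (-0.94 ± 0.07, adjusted p = 2.4e-08). The difference of these effects was -0.01 ± 0.10, with a 95% interval of -0.22 to 0.20. The hairpin difference was -0.09 ± 0.07 untreated (-0.23 to 0.05, adjusted p = 0.40) and -0.10 ± 0.07 with retinoic acid (-0.25 to 0.06, adjusted p = 0.43). From high to low, Dnmt1 and Uhrf1 thus had the untreated groups above the treated ones. Within each pair the hairpins were not told apart in the main fit. With the slide as a block, Dnmt1 passed under retinoic acid but not untreated (adjusted p = 0.75). Uhrf1 passed in neither treatment with that block (adjusted p = 0.21 untreated and 0.39 with retinoic acid).

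Dnmt3a, a de novo methyltransferase, was the one member that rose with retinoic acid. It had 0.61, 0.65 and 0.78 in sh4 cells with retinoic acid, against -0.34, -0.37, -0.31 and -0.37 in untreated sh4 cells. In shCTR cells the values were 0.66, 0.60, 0.77 and 0.86 with retinoic acid, against -0.31, -0.29, -0.31 and -0.29 untreated. Every treated sample was above every untreated one, and the untreated samples varied little, with an SD of 0.03 in sh4 cells and 0.01 in shCTR cells. The rise was 2.04-fold in sh4 cells (1.03 ± 0.07, adjusted p = 1.6e-08) and 2.04-fold in shCTR cells (1.03 ± 0.06, adjusted p = 5.5e-09), and the interval of the difference between them ran from -0.20 to 0.20. Between hairpins the untreated difference was -0.04 ± 0.06 (-0.18 to 0.09, adjusted p = 0.72), although the groups did not overlap. Under retinoic acid it was -0.04 ± 0.07 (-0.19 to 0.10, adjusted p = 0.77).

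Dnmt3b, the other de novo methyltransferase, had 4 levels that were all told apart, in the order untreated sh4, untreated shCTR, treated shCTR and treated sh4. It had 5.16, 5.30, 5.33 and 5.32 in untreated sh4 cells, against 3.92, 3.90, 4.05 and 4.08 in untreated shCTR cells. With retinoic acid it had 3.20, 3.18 and 3.19 in sh4 cells, against 3.70, 3.50, 3.60 and 3.68 in shCTR cells. The cells with sh4 therefore held both the highest and the lowest levels. Untreated, the log2 difference between hairpins was 1.29 ± 0.06 (95% interval 1.15 to 1.43, adjusted p = 7.2e-09), and it lay between 1.24 and 1.39 on each of the 4 slides. Under retinoic acid it was -0.43 ± 0.07 (-0.58 to -0.28, adjusted p = 5.8e-04), with -0.50 to -0.33 on 3 slides. The interaction was -1.72 ± 0.10 (-1.93 to -1.51, adjusted p = 6.1e-08). The call under retinoic acid was lost when arrays were scaled to the median (-0.41, adjusted p = 0.076).

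With retinoic acid Dnmt3b fell to 23.5% of its untreated level in sh4 cells (-2.09 ± 0.07, adjusted p = 1.9e-11). In shCTR cells it fell to 77.4% (-0.37 ± 0.06, adjusted p = 1.9e-04). The second of these calls depended on the processing and on the probe. It was lost with quantile normalisation (-0.12, adjusted p = 0.16), in the authors' deposited log2 values (-0.12, adjusted p = 0.19) and with the mean over probes (-0.21, adjusted p = 0.070).

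Dnmt3l, the catalytically inactive cofactor, was lowest in sh4 cells with retinoic acid. It read 3.32, 3.17 and 3.47 there, against 4.17, 4.08, 4.24 and 4.30 in shCTR cells with retinoic acid. In untreated cells it had 5.07, 5.06, 5.26 and 5.16 with sh4, against 4.78, 4.85, 5.06 and 5.01 with shCTR. The treated groups were clearly separated, and the untreated ones nearly touched without overlapping. Under retinoic acid the hairpin difference was -0.88 ± 0.09 (-1.08 to -0.67, adjusted p = 2.0e-05). Untreated, it was 0.21 ± 0.09 (0.02 to 0.40), which missed the threshold at an adjusted p of 0.094. On the 4 slides the untreated difference was 0.14 to 0.29, and it passed with the slide as a block (0.21, adjusted p = 0.0080). It also passed with the replicate number, which coincides with the slide for these samples, as a block (0.21, adjusted p = 0.0497). The interaction was -1.09 ± 0.13 (-1.37 to -0.81, adjusted p = 4.7e-05). With retinoic acid Dnmt3l fell to 28.4% in sh4 cells (-1.82 ± 0.09, adjusted p = 1.3e-09) and to 60.4% in shCTR cells (-0.73 ± 0.09, adjusted p = 5.5e-06).

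**Figure D2:**
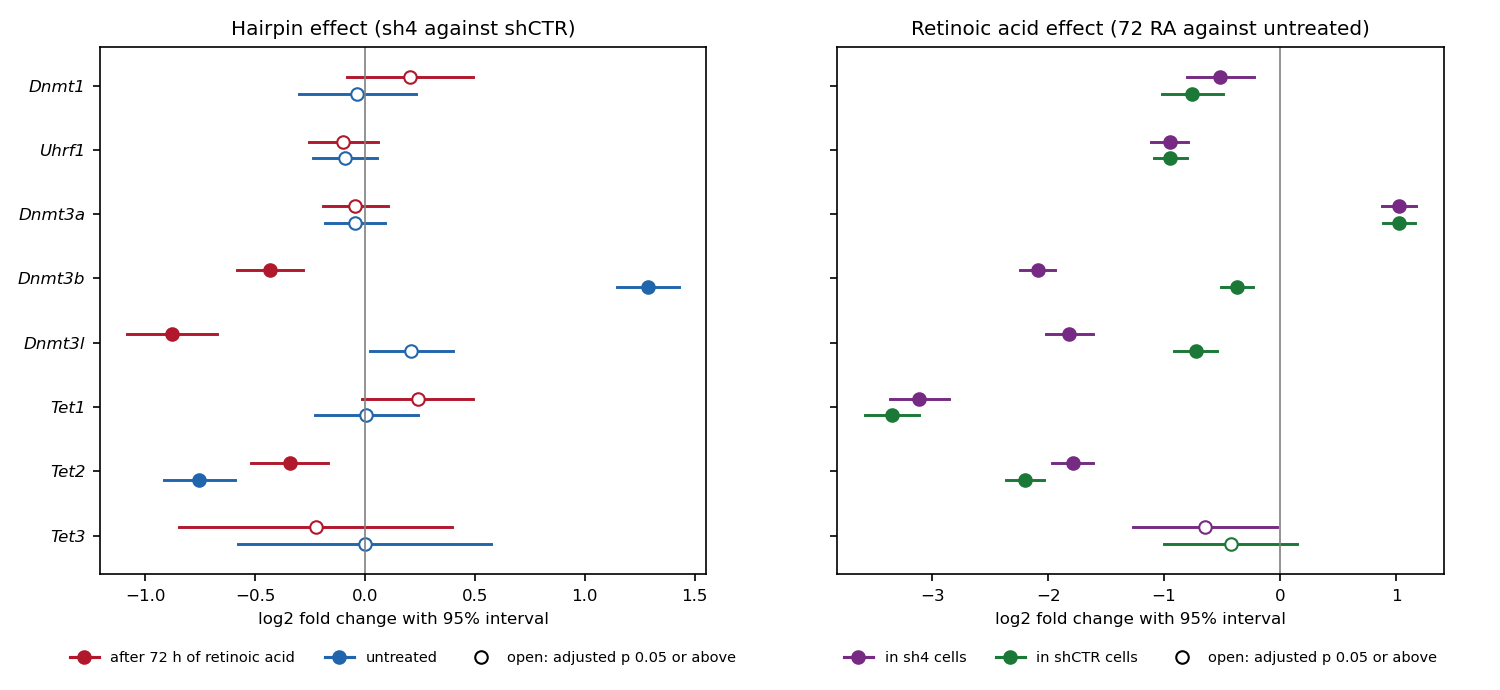
Log2 fold change with its 95% interval for each gene, for sh4 against shCTR under retinoic acid and untreated and for retinoic acid against untreated in sh4 and in shCTR cells; filled points passed the test. Dnmt3b stands at -0.43 and 1.29 for the hairpin, on opposite sides of 0, and Dnmt3a is the one gene right of 0 for retinoic acid in both hairpins.

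Tet1, the most studied of the dioxygenases in ES cells, had the largest retinoic acid effect of the 8 members in both hairpins. Its level was -0.72, -0.75 and -0.97 in sh4 cells with retinoic acid, against 2.45, 2.17, 2.36 and 2.22 in untreated sh4 cells. In shCTR cells it was -1.20, -1.05, -1.10 and -0.86 with retinoic acid, against 2.54, 2.33, 2.11 and 2.19 untreated. Treated and untreated samples were separated by a gap several times wider than any group. Tet1 fell to 11.6% in sh4 cells (-3.11 ± 0.12, adjusted p = 5.8e-11) and to 9.85% in shCTR cells (-3.34 ± 0.11, adjusted p = 8.6e-12). The hairpin difference was 0.01 ± 0.11 untreated (-0.23 to 0.24, adjusted p = 0.98) and 0.24 ± 0.12 with retinoic acid (-0.01 to 0.49, adjusted p = 0.19). The interaction was 0.23 ± 0.16, with an interval of -0.11 to 0.58.

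Tet2 had 4 levels that were all told apart, with shCTR above sh4 in each treatment. It had 2.02, 1.87, 1.76 and 1.73 in untreated sh4 cells, against 2.72, 2.65, 2.45 and 2.58 in untreated shCTR cells. With retinoic acid the values were 0.04, 0.05 and 0.09 in sh4 cells, against 0.45, 0.36, 0.36 and 0.45 in shCTR cells. No groups overlapped. The hairpin difference was -0.75 ± 0.08 untreated (-0.92 to -0.59, adjusted p = 4.2e-06), with -0.85 to -0.69 on the 4 slides. Under retinoic acid it was -0.34 ± 0.08 (-0.52 to -0.17, adjusted p = 0.0079), a call that was lost with normexp background correction (-0.31, adjusted p = 0.052) and with median scaling (-0.32, adjusted p = 0.067).

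Tet2 was lower with retinoic acid in both hairpins. It fell to 29.0% in sh4 cells (-1.79 ± 0.08, adjusted p = 3.3e-10) and to 21.8% in shCTR cells (-2.20 ± 0.08, adjusted p = 1.4e-11). The interaction of 0.41 ± 0.11 (0.17 to 0.65, adjusted p = 0.018) was positive. It missed the threshold with normexp (0.41, adjusted p = 0.062), in the authors' deposited log2 values (0.37, adjusted p = 0.051) and without the 3 arrays rated for evaluation (0.38, adjusted p = 0.098).

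Tet3, the remaining dioxygenase, passed no test in the main fit and varied most among replicates. Its brightest probe read -2.62, -2.02 and -3.21 in sh4 cells with retinoic acid, against -1.96, -1.31, -2.45 and -2.15 in untreated sh4 cells. In shCTR cells it read -2.42, -2.03, -2.51 and -2.61 with retinoic acid, against -1.82, -1.75, -2.26 and -2.03 untreated. All groups overlapped their neighbours in level. The log2 difference with retinoic acid was -0.65 ± 0.29 in sh4 cells (-1.27 to -0.03, adjusted p = 0.069) and -0.43 ± 0.27 in shCTR cells (-1.002 to 0.15, adjusted p = 0.19). With the slide as a block both passed, at -0.70 (adjusted p = 0.0012) and -0.43 (adjusted p = 0.011). The sh4 difference also passed without sh4 72 RA replicate 3 (-0.95, adjusted p = 0.012) and without untreated sh4 replicate 3 (-0.81, adjusted p = 0.030). Other probes of Tet3 had other directions, given below.

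The 8 further probes of these genes were tested in a fit over all 31179 kept probes. In 36 of the 40 combinations of probe and comparison the call was the same as that of the chosen probe, and in none were the calls opposite. For Dnmt3b the other 2 probes gave 1.53 ± 0.09 (adjusted p = 3.9e-08) and 1.65 ± 0.16 (adjusted p = 4.1e-06) for sh4 against shCTR in untreated cells. Under retinoic acid they gave -0.44 ± 0.10 (adjusted p = 0.0070) and -0.59 ± 0.18 (adjusted p = 0.029). They did not pass for retinoic acid in shCTR cells, at -0.21 ± 0.09 (adjusted p = 0.064) and -0.05 ± 0.16 (adjusted p = 0.81). The probe that holds the stop triplet shown above is one of this pair.

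The second Tet2 probe gave -0.92 ± 0.08 (adjusted p = 1.4e-06) for sh4 against shCTR untreated and -0.32 ± 0.09 (adjusted p = 0.021) under retinoic acid. Both other Tet1 probes fell with retinoic acid, with log2 fold changes of -2.71 and -3.01 in sh4 cells and -2.74 and -3.12 in shCTR cells. A second Uhrf1 probe, which spans 654 bases of genome, fell too, at -0.74 (adjusted p = 4.4e-05) in sh4 cells and -0.68 (adjusted p = 4.0e-05) in shCTR cells. The Tet3 probes went apart. The downstream one shown above was dim, with a processed signal of 25.3 to 56.1 in cells with retinoic acid and 6.68 to 29.6 in untreated cells, and it was well above background on 14 of 15 arrays. Its fitted level was higher with retinoic acid, by 1.18 ± 0.26 in sh4 cells (adjusted p = 0.0015) and 1.21 ± 0.24 in shCTR cells (adjusted p = 5.8e-04). The upstream one, at a signal of 32.1 to 48.4 with retinoic acid and 20.5 to 59.8 untreated, gave 0.29 and 0.37, which did not pass, and the brightest was negative. The 3 probes thus differ in brightness and in the sign of their values, and whether the probes read different transcripts was not tested.

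**Figure D3:**
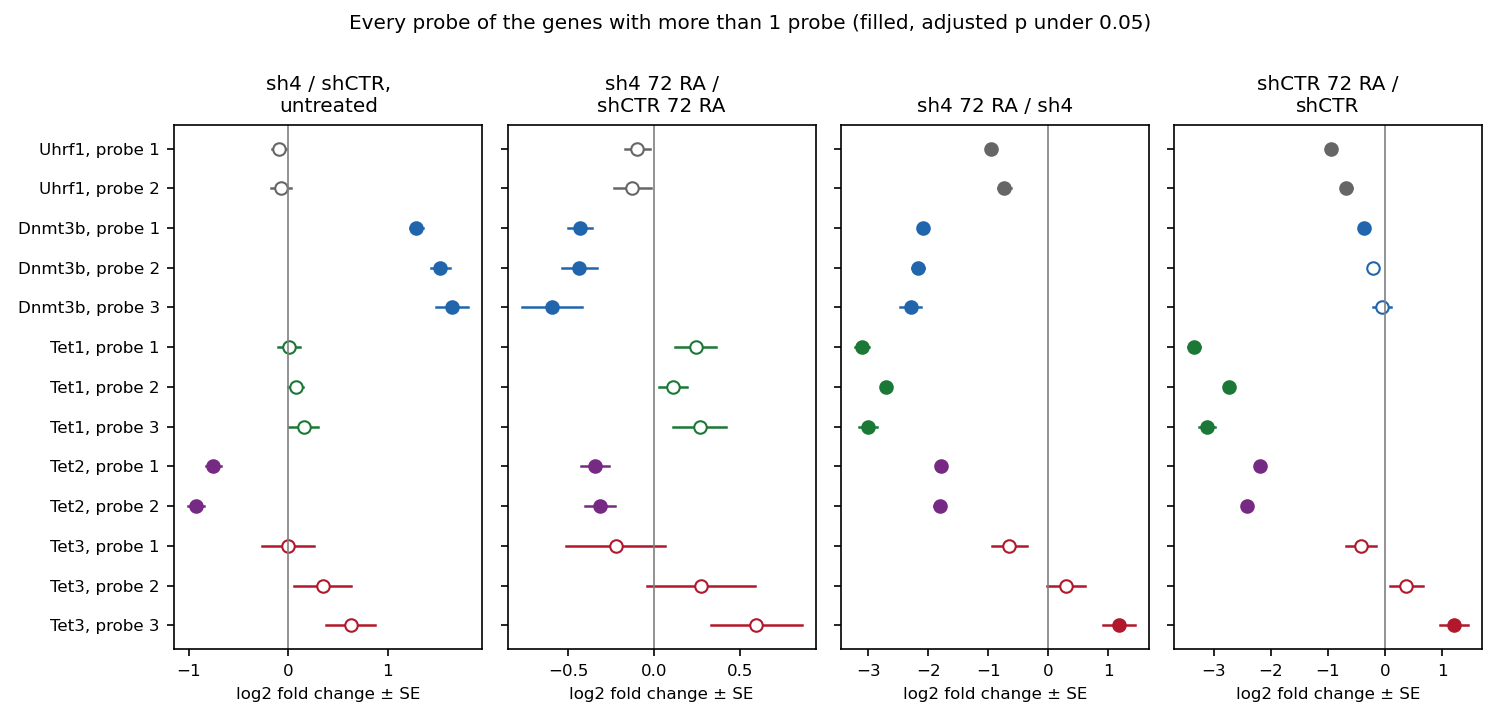
Log2 fold change of every probe of the members with more than 1 probe, with standard errors, for each comparison; probe 1 of a gene is the chosen one, and filled points passed the test. All 3 Dnmt3b probes lie right of 0 for sh4 against shCTR in untreated cells, while the 3 Tet3 probes lie on both sides of 0 for retinoic acid.

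Some other genes followed a member closely over the 15 arrays. Likeness was measured as the root mean square difference between log2 levels centred on each gene's own mean, among 18579 genes with a RefSeq symbol, and it describes these arrays only. The arrays share groups and slides, so no test goes with it. Closest to Dnmt3b were Tal2, a helix-loop-helix factor, at 0.13 and Aass, a lysine-degrading enzyme, at 0.18, against a spread of 0.78 for Dnmt3b itself. Dnmt3l, with a spread of 0.68, was nearest to Uap1l1 at 0.11 and Tmem45b at 0.13. Tet1, with 1.63, was nearest to Slco4a1, an organic anion transporter, at 0.17 and Socs3, an inhibitor of cytokine signalling, at 0.18. Tet2, with 1.03, was nearest to Kcnj12, a potassium channel, and Col9a2, a collagen chain, both at 0.11. The nearest to Dnmt3a were Atp7a, a copper transporter, at 0.064 and Glt8d1 at 0.073. For Uhrf1 they were Cox7c, a subunit of cytochrome oxidase, at 0.063 and Pcnt, a centrosomal protein, at 0.065. Dnmt1 was nearest to 5730416F02Rik at 0.088 and Mrpl30, a mitochondrial ribosomal protein, at 0.092, and Tet3 to Dnase1 at 0.15 and 0610009L18Rik at 0.17. No member was among the 2 nearest genes of another member.

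The lists of related genes below were chosen with earlier results of these data known, and they are read beside all genes. In sh4 against shCTR, the share called in untreated cells was 10.5% to 30.8% in 6 lists and 68.4% in the germline list, beside 28.6% of all genes, and under retinoic acid it was 0 to 38.5%, beside 21.2%. With retinoic acid the shares were 57.9% to 100% in sh4 cells, beside 58.7%, and 63.2% to 90.0% in shCTR cells, beside 62.4%.

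Genes that work with the maintenance pair mostly fell with retinoic acid. Of 9 such partners, which include chromatin remodellers, a ligase and assembly factors of the replication fork, 7 fell and 1 rose in both hairpins, with a median log2 fold change of -0.92 in sh4 cells and -0.97 in shCTR cells. Hells, a remodeller needed for normal methylation, fell by 1.42 and 1.48 on the log2 scale in sh4 and shCTR cells. Uhrf2, the paralogue of Uhrf1, rose by 0.79 and 0.59. The hairpin changed 1 of the 9 in untreated cells, which was lower (with the replicate block 1 was higher and 2 lower), and 1 under retinoic acid, Cdca7, which activates Hells and was higher by 0.33 (adjusted p = 0.0082), a call lost without the 3 arrays rated for evaluation. Beside the falls of Dnmt1 and Uhrf1, 15 of 19 measured S phase genes fell in sh4 cells (median -0.75) and 13 in shCTR cells (median -0.87), and 1 rose in each. Pola1, the catalytic subunit of DNA polymerase alpha, fell by 1.17 and 1.43. The share of cells in S phase was not measured, and its part in the lower Dnmt1 and Uhrf1 was not tested. In sh4 against shCTR, 2 of the 19 S phase genes were lower in untreated cells (with the replicate block 1 was higher and 3 lower). Under retinoic acid limma called 0 of 19, while 4 had an unadjusted p under 0.05. With the slide as a block 2 were higher and 1 was lower in sh4 cells. With the replicate block 4 were higher, but its numbers do not pair the sh4 72 RA samples.

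The list of proteins that target or protect methylation holds 13 genes. Dppa3, which keeps Uhrf1 away from DNA and protects the maternal genome, was higher in untreated sh4 cells by 3.01 ± 0.08 on the log2 scale (adjusted p = 3.1e-11). Under retinoic acid it was lower in sh4 cells by a log2 fold change of -0.98 ± 0.09 (adjusted p = 3.7e-06). In untreated cells 2 of the 13 were higher and 2 lower, a share of 30.8% beside 28.6% of all genes, and under retinoic acid 2 were higher and 3 lower. With retinoic acid 9 of 13 fell in each hairpin, with medians of -1.14 in sh4 and -0.87 in shCTR cells, and 2 rose in sh4 cells and 1 in shCTR cells. Prdm14, a repressor of Dnmt3b and Dnmt3l in ES cells, fell by 6.06 and 5.86. It was also lower in sh4 cells than in shCTR cells, at -1.02 ± 0.30 untreated (adjusted p = 0.022) and -1.21 ± 0.33 under retinoic acid (adjusted p = 0.017). Both of these calls were lost without the 3 arrays rated for evaluation (adjusted p = 0.065 and 0.14). The untreated one was also lost without shCTR replicate 3 (adjusted p = 0.051), and the one under retinoic acid without sh4 72 RA replicate 1 (adjusted p = 0.098) or replicate 3 (adjusted p = 0.086) and in a fit of only those groups (adjusted p = 0.11). E2f6, which helps to silence germline genes, rose by 1.09 in both.

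The list of methyl-CpG binding families holds 10 genes with an MBD domain or a zinc finger of the Kaiso type. It includes Mbd5, whose MBD domain is not known to bind methylated DNA. With retinoic acid 5 of 10 rose in each hairpin, and 1 fell in sh4 cells and 2 in shCTR cells, with medians of 0.45 and 0.37. Zbtb4, a zinc finger protein that binds methylated CG, rose by 2.33 and 1.73, and Mbd5 by 3.93 and 3.82. Under retinoic acid 3 of 10 were higher in sh4 cells and none was lower, among them Zbtb4 at 0.53 (adjusted p = 2.0e-05), which missed the threshold with the mean over probes (0.49, adjusted p = 0.13). In untreated cells 2 were higher and 1 lower, and the 2 were Mbd2 at 0.48 (adjusted p = 0.0022) and Zbtb33, also called Kaiso, at 0.49 (adjusted p = 0.0037).

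Of the enzymes that act with or after Tet, 17 of 18 listed were measured. With retinoic acid 10 fell in sh4 cells and 11 in shCTR cells, and 3 rose in each, with medians of -0.76 and -0.62. The glycosylase Neil2 fell by 2.01 and 2.10, and Apobec1, a cytidine deaminase, by 3.07 and 3.40. For the hairpin, 3 were higher and 1 lower in untreated cells, and 2 were higher and 1 lower under retinoic acid. Gadd45a, a stress-induced factor linked to demethylation, was higher by 0.76 ± 0.10 in untreated sh4 cells (adjusted p = 6.5e-05). Idh1, which makes the 2-oxoglutarate that Tet enzymes consume, was lower under retinoic acid, at -0.58 (adjusted p = 1.5e-04).

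Most enzymes of methyl donor supply fell with retinoic acid. Of 10 enzymes of the folate and methionine cycles, 9 fell in sh4 cells and 8 in shCTR cells, and 1 rose in each, with medians of -0.60 and -0.68. Shmt1 fell by 2.18 and 2.01 and Shmt2 by 1.70 and 2.54; both take a carbon from serine for the folate pool. In untreated sh4 cells 1 of 10 was higher and 2 were lower than in shCTR cells, among them Shmt2 at -0.76 ± 0.08 (adjusted p = 9.2e-06). Under retinoic acid 2 were lower and none was higher.

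Germline genes whose promoters are known to be silenced by DNA methylation were mostly lower in untreated sh4 cells. Of 19, 11 were lower and 2 higher there than in shCTR cells, with a median of -0.40, beside the higher Dnmt3b and lower Tet2. Hormad1, a protein of the meiotic chromosome axis, was lower by a log2 fold change of -1.49 ± 0.11 (adjusted p = 2.0e-07). Ddx4, a germ cell helicase, was higher by 0.39 (adjusted p = 0.0035). Over the alternative settings 9 to 12 were lower and 1 to 2 higher. Not all of the list was silent: mean levels in untreated shCTR cells were 4.70 for Tex19.1 and 3.74 for Tuba3a. Tdrd1, at -7.55 there, was not well above background on any of those arrays. Tuba3a and Tuba3b, counted separately, moved alike, at 2.51 and 0.78 in untreated sh4 cells, against 3.74 and 2.03 in shCTR cells. Whether their probes tell them apart was not tested. Under retinoic acid 5 were lower and 1 higher in sh4 cells, with a median of -0.08. With retinoic acid itself 7 rose and 4 fell in sh4 cells (median 0.09), while 5 rose and 7 fell in shCTR cells (median -0.02). Methylation was not measured here, and any link between these genes and the enzymes was not tested.

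**Figure D4:**
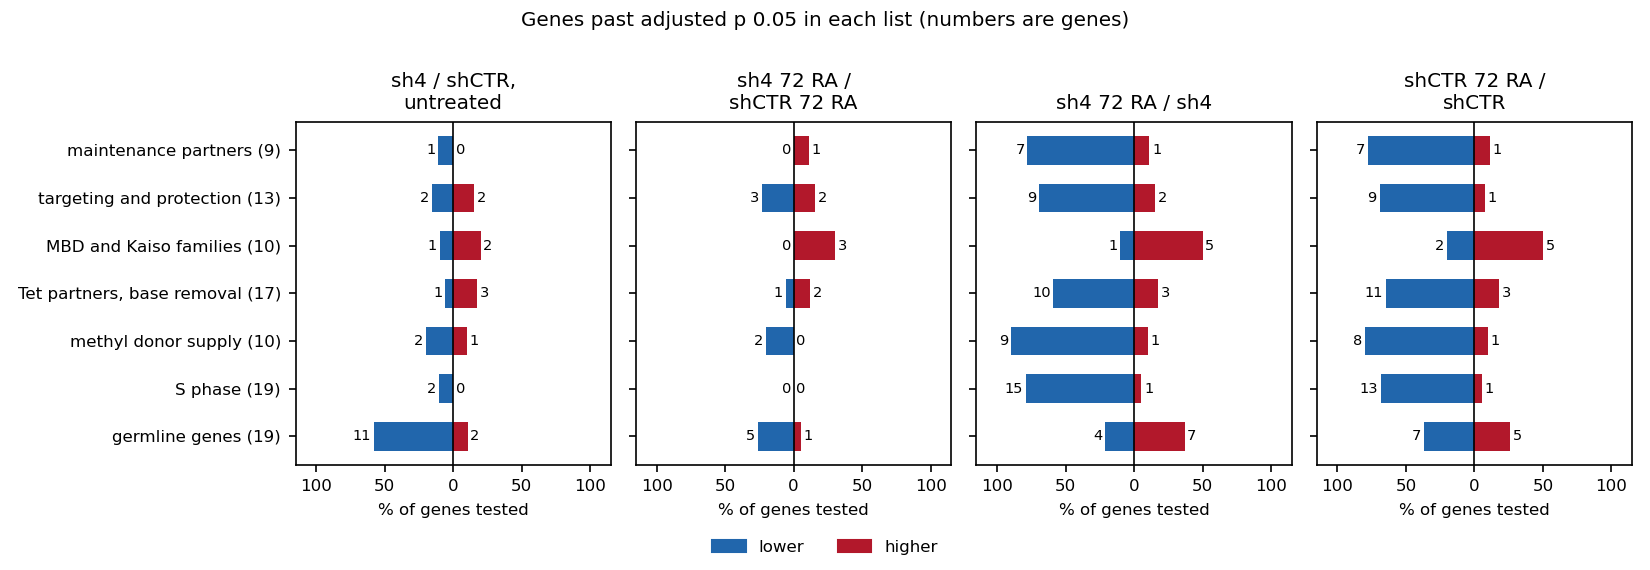
Share of the measured genes of each list, in percent, that were lower (left of 0) and higher (right of 0) past the test, for the hairpin and for retinoic acid, with the number of genes beside each bar. With retinoic acid 15 of 19 S phase genes were lower in sh4 cells, and 11 of 19 germline genes were lower in untreated sh4 cells relative to shCTR cells.

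Cell type markers moved with the same contrasts, and their part in the results above was not tested. All marker counts below stand beside the shares over all genes. Those were 28.6% for the hairpin untreated, 21.2% for it under retinoic acid, and 58.7% and 62.4% for retinoic acid in sh4 and shCTR cells. The ES cell labels were borne out in untreated cells: Pou5f1, Sox2 and Nanog had mean levels of 4.34, 3.05 and 4.85 with sh4, against 4.51, 3.23 and 5.32 with shCTR. None of the 3 passed the main test of the hairpin. In 2 of 27 alternatives Nanog was called lower in untreated sh4 cells. One was a fit of only the groups compared (-0.47, adjusted p = 0.0035). With retinoic acid Pou5f1 was at -0.42, Sox2 at -1.49 and Nanog at -0.88 in sh4 cells, against 1.38, -2.33 and 0.26 in shCTR cells. Under retinoic acid Pou5f1 was thus lower in sh4 cells (-1.80 ± 0.22, adjusted p = 5.6e-05), as was Nanog (-1.13 ± 0.26, adjusted p = 0.0065), and Sox2 was higher (0.84 ± 0.12, adjusted p = 1.7e-04). The Nanog call under retinoic acid was lost without the 3 arrays rated for evaluation (adjusted p = 0.070). It was also lost in a fit of only the groups compared (adjusted p = 0.067). Of the 9 ES cell markers, all 9 fell with retinoic acid in sh4 cells and 8 in shCTR cells, and the sh4 cells had 6 lower and 1 higher under retinoic acid and 2 lower untreated. The untreated share, 22.2%, was below that of all genes. Summed linear signals are given below in units of the 75th percentile. They add different probes and are carried by the brightest, which are named with their shares after their values were seen. For the ES cell markers the sum ran from 53.2 to 64.3 in sh4 cells and from 97.6 to 105.8 in shCTR cells with retinoic acid. Untreated, the sums ran from 311 to 348 in sh4 cells and from 330 to 411 in shCTR cells. Dppa5a made up 86.3% and 86.1% of these sums in sh4 and shCTR cells with retinoic acid, and 37.5% and 31.2% untreated, so the treated sums are mainly the level of that gene.

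Beside the higher Dnmt3b of untreated sh4 cells, all 8 trophectoderm markers were higher there than in shCTR cells, and 7 to 8 over the alternative settings. Elf5 was near background in this contrast: it was well above background on 2 untreated sh4 arrays and on no untreated shCTR array. Their summed signal was 74.8 to 85.3 in untreated sh4 cells and 6.16 to 7.83 in untreated shCTR cells, and Cdx2 was higher by 4.16 ± 0.14 (adjusted p = 2.7e-10) and Krt7 by 4.02 ± 0.11 (adjusted p = 5.5e-11). With retinoic acid the sum was 269 to 329 in sh4 cells and 297 to 321 in shCTR cells, and 2 markers were higher and 3 lower. Krt8 and Krt18, keratins of simple epithelia, together made up 98.6% and 99.0% of the sum in sh4 and shCTR cells with retinoic acid, and 95.1% and 74.5% untreated. The sum therefore does not follow the whole list: with retinoic acid 5 of the 8 rose and 3 fell in sh4 cells, the 3 being Cdx2 (-2.07), Tfap2c (-1.70) and Eomes (-0.58). Beside the lower Dnmt3b, Dnmt3l and Tet2 of treated sh4 cells, all 10 endoderm markers were lower there, with Hnf4a at -3.51 and Ttr at -3.41, and sums of 9.28 to 10.3 in sh4 against 26.6 to 29.8 in shCTR cells. In untreated cells 7 of the 10 were lower in sh4 cells, among them Pdgfra at -2.43, with sums of 0.423 to 0.449 in sh4 and 1.17 to 1.31 in shCTR cells. Ttr was not well above background on any untreated array.

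Fibroblast markers, which feeder cells would bring, summed to 10.003 to 10.496 in sh4 and 7.93 to 9.88 in shCTR cells with retinoic acid, and to 1.28 to 1.47 in sh4 and 3.01 to 3.39 in shCTR cells untreated. Thy1 alone made up 45.9% and 65.3% of the untreated sums in sh4 and shCTR cells. Col3a1, Dcn and Lum were not well above background on any untreated shCTR array, and Postn was not on any untreated array. In untreated sh4 cells Col3a1, Dcn and Lum were so on 1, 4 and 2 arrays. Their mean levels there were -7.81, -6.46 and -7.72, against -9.93, -9.47 and -9.07 in untreated shCTR cells. In untreated cells 3 of the 10 fibroblast markers were higher and 4 lower in sh4 than in shCTR cells, so the untreated sums do not follow the whole list. Over the alternative settings 0 to 4 were higher and 3 to 4 lower. With retinoic acid 9 of the 10 rose in sh4 cells and 8 in shCTR cells, and 1 fell in each. The 6 neural markers summed to 5.19 to 6.39 in sh4 and 4.31 to 4.93 in shCTR cells with retinoic acid, and to 2.99 to 3.84 in sh4 and 4.67 to 6.21 in shCTR cells untreated, with 2 higher and 2 lower in untreated sh4 cells. Nes made up 84.6% and 72.1% of the treated sums in sh4 and shCTR cells, and Tubb3 67.8% and 83.8% of the untreated ones, so these sums do not describe the 6 markers together.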

How the data were processed

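Total RNA (500 ng) of 15 samples was labelled with Cy3 and hybridised to 1-colour Agilent arrays, per the labels. Per the file headers, the deposited spot intensities were background-subtracted and detrended by Feature Extraction 10.7.3.1, with no scaling between arrays. The authors' deposited log2 values per array, for which no source used here gives the processing, served as an alternative only. Of 43020 non-control spots, uneven and outlying ones were removed and copies of a probe averaged to 39429 probes, of which 39312 were used and 117 lacked a usable spot on 1 or more arrays. The log2 signal was centred on each array's 75th percentile. A gene was tested if the software called its brightest probe well above background on 3 or more arrays of any group. Differences were tested with limma 3.58.1 (R 4.3.3, with the data.table package, version 1.17.8) in 1 model of the 4 groups over 15 arrays, and the procedure was tested on simulated data; plots used Python 3.11.15, pandas 2.3.3 and matplotlib 3.10.9. Probes were named through RefSeq (29171 matched, 10141 kept the file's name). The members and lists were chosen with earlier results of these data known. Named genes were the members, Phf19, each member's 2 nearest genes, and at most the 2 largest rises and falls past the threshold per list and comparison, with Pou5f1, Sox2 and Nanog. Other list genes, named for their level, for lying near background or for what a sum holds, were picked after their values were seen. Same-numbered samples were checked for pairing by the correlation of their deviations from the group mean. Between shCTR 72 RA, sh4 and shCTR, where number and slide coincide, it was 0.343 to 0.578 in every pair. Pairing by number and a shared slide cannot be told apart there. With sh4 72 RA it ran from -0.533 to 0.558, so the numbers do not pair that group. Arrays of one slide correlated at 0.115 to 0.607. Precision is limited by the number of arrays. Alternatives changed the background correction, scaling, probe summary, filter, blocks, weights and arrays.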

Additional observations from a re-analysis of the deposited data

Results flagged for a closer look

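For 3 of the 8 genes the effect of sh4 against shCTR under retinoic acid differed from that in untreated cells by the interaction test over all genes (limma, Benjamini-Hochberg), which 20.5% of all genes passed. Dnmt3b had -1.72 ± 0.10 (adjusted p = 6.1e-08), with the hairpin effect at -0.43 with retinoic acid and 1.29 without. Dnmt3l had -1.09 ± 0.13 (adjusted p = 4.7e-05), with -0.88 and 0.21, of which the untreated value missed the threshold. Tet2 had 0.41 ± 0.11 (adjusted p = 0.018), with -0.34 and -0.75, and it missed the threshold in 3 of 26 alternatives. No sample of any member stood apart from its group by Dixon's test, which was run for 24 combinations of gene and group with 4 arrays.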

How the results depend on the processing

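Of 27 alternatives, 15 left out 1 array each. The untreated differences of Dnmt3b and Tet2, the difference of Dnmt3l under retinoic acid and the retinoic acid effects of Dnmt3b in sh4 cells and of Dnmt1, Dnmt3a, Dnmt3l, Uhrf1, Tet1 and Tet2 in both hairpins kept direction and call in all 27, and the interactions of Dnmt3b and Dnmt3l in the 26 that gave one; fitting only the groups compared gives none. Other changed calls of single genes stand beside their results. Median scaling left 1 member called for the hairpin under retinoic acid in place of 3. Over all genes, normexp called 4639 untreated, 3392 under retinoic acid and 3048 for the interaction, in place of 7166, 5325 and 5135, and median scaling called 3299 and 2976 for the last 2; the cause was not tested. Median scaling moved the median of all genes to -0.27 and -0.33 for retinoic acid in sh4 and shCTR cells. Tet3 passed for retinoic acid with quantile normalisation (-0.76 and -0.58), median scaling (-0.79 and -0.63), the authors' values in sh4 cells (-0.62) and a fit of only the groups compared in shCTR cells (-0.43).

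Signs turned only for values that had missed the threshold. The interaction of Dnmt3a (0.0011) became -0.010 with normexp, -0.0075 with quantile normalisation, -0.037 in the authors' values and -0.050 with array weights. That of Uhrf1 (-0.0078) became 0.025 with normexp, 0.015 with quantile normalisation, 0.054 with median scaling, 0.063 in the authors' values, 0.017 with the slide block and 0.051 without the 3 evaluated arrays. For sh4 against shCTR untreated, Tet1 became -0.030 with median scaling, -6.8e-05 in the authors' values and -4.4e-04 without the 3 arrays, and Tet3 became 0.029 with array weights and 0.23 without the 3 arrays. With the mean over probes Tet3 became 0.32 and 0.21 for the hairpin untreated and under retinoic acid, and 0.27 and 0.39 for retinoic acid in sh4 and shCTR cells.

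Leaving out 1 array at a time, the untreated hairpin difference ran from -0.11 to 0.047 for Dnmt1, -0.056 to 0.089 for Tet1 and -0.22 to 0.16 for Tet3. Under retinoic acid it ran from -0.094 to 0.0032 for Dnmt3a and -0.52 to 0.072 for Tet3. The interaction ran from -0.049 to 0.048 for Dnmt3a, -0.051 to 0.051 for Uhrf1 and -0.52 to 0.074 for Tet3. The replicate numbers coincided with the slides in 3 groups but not for all samples of sh4 72 RA. With a replicate block the untreated difference of Dnmt3l passed at 0.21 (adjusted p = 0.0497), the interaction of Dnmt3a was -0.013, and no other call of a member changed.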
